A study of Mus musculus with 24 samples.

Results

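ATF4 targets and genes of the amino acid response were followed as a group of 36 genes, given as a list of symbols. No cutoff on their values was used, but the list was chosen with earlier results of these data known. All 36 matched a mouse Entrez gene ID by symbol, out of 36528 gene IDs in the count files, and all 36 were among the 15429 genes with enough reads to be tested. The study cultured organoids from mouse small intestine, which are self-organising cultures of the intestinal lining, and sequenced their polyadenylated RNA. The 24 libraries form 6 groups of 4: organoids given DMSO, Fz7-21S or dFz7-21 and collected after 6 h or 24 h. Per the series design, dFz7-21 is a peptide against Frizzled 7, a receptor for Wnt proteins. DMSO served as the group without peptide, and of Fz7-21S the labels give only the name. Peptide dose, culture medium, mouse strain and the number of animals were not given in the sources used here, and nothing says that the 4 samples of a group came from separate cultures, so the p-values reflect only the spread among these samples, which may be technical.

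ATF4 is a transcription factor made mainly by altered translation: when kinases that sense amino acid shortage, unfolded protein, haem shortage or double-stranded RNA phosphorylate the initiation factor eIF2 alpha, general translation falls while ATF4 messenger RNA is translated more. The protein pairs with C/EBP family members on composite C/EBP-ATF response elements and raises genes that make, import and charge amino acids onto tRNA, together with genes that damp or end the response. Messenger RNA of its targets is therefore a common readout of this pathway, whereas RNA-seq does not measure ATF4 protein or eIF2 alpha phosphorylation.

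A few start-site windows of the list are shown because some members carry the core of the element through which ATF4 is known to act. RefSeq windows of build GRCm38.p6, from 250 bases before to 50 bases after each annotated start, were found for 30 of the 36 members. The core TGATGNAA was searched on both strands. It was found in 9 of those 30 genes, and in 4.51% of the 27025 genes of the table. The 9 genes were Chac1, Asns, Nupr1, Pck2, Trib3, Vldlr, Aars, Gars and Tars. The match lay 14 bases after the start in Trib3, and in the other 8 genes at least 1 match lay before the start. Stretches of 5 of them are printed in the direction of transcription with the match in capitals. Chac1 is at chr2:119351009-119351096, plus strand, Nupr1 at chr7:126625533-126625620, minus strand, Asns at chr6:7693210-7693272, minus strand, Pck2 at chr14:55540123-55540210, plus strand and Tars at chr15:11399659-11399713, minus strand.
Chac1: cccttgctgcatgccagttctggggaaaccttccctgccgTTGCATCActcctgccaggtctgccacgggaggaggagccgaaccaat
Nupr1: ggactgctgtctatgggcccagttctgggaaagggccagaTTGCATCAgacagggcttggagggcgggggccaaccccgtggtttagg
Asns: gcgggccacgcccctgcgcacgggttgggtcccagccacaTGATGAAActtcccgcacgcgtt
Pck2: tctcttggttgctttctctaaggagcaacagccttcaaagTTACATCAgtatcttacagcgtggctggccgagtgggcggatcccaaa
Tars: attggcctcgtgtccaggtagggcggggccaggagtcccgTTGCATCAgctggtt
The Chac1, Nupr1 and Tars stretches carry the same 8 letters, TTGCATCA, which is the core read on the other strand. The core begins 193 bases before the start in Chac1, 110 bases before it in Nupr1, 103 in Pck2, 23 in Asns and 15 in Tars. The cAMP response element TGACGTCA, a site of related factors, was found in 1 of the 30 members, Ppp1r15a, and in 2.03% of all genes of the table. A match is a description of these letters and not evidence of binding.

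Libraries held 20446610 to 33102993 counted reads, and 3 reads corresponded to 0.0906 to 0.147 CPM (reads of a gene per 1000000 counted reads), a floor that covers counting error only. Levels are given in CPM scaled by TMM factors, which align the libraries on the bulk of their genes. Epithelial markers (Epcam, Krt8, Krt18, Cdh1, Vil1 and Cdx2) summed to 6157 to 12591 CPM in every library, and the endothelial and glial markers Cdh5 and Sox10 were at 0 in all 24. Mesenchymal markers summed to 173 to 1024 CPM in a pair of DMSO libraries of 6 h (replicates 1 and 2) and in dFz7-21 24 h replicate 3, against 4.95 to 14.6 CPM in the other 21 libraries, with Dcn and Lum at 0 throughout. Fz7-21S 24 h replicate 4 stood apart over all genes: its median absolute log2 distance from the other libraries of its group was 0.395, against 0.143 to 0.196 for those 3 and at most 0.125 in other groups. The same library had the highest Paneth marker sum of its group (4814 CPM against 2889 to 3049 CPM) and the highest goblet marker sum (1546 CPM against 897 to 961 CPM). It was the highest of its group for 21 of the 36 members and the lowest for 8. Stem cell markers (Lgr5, Olfm4, Smoc2 and Ascl2) summed to 170 to 254 CPM in dFz7-21 at 24 h, 1793 to 2444 CPM in DMSO and 1860 to 2057 CPM in Fz7-21S. Enterocyte markers summed to 729 to 885 CPM in dFz7-21, 352 to 517 CPM in DMSO and 492 to 699 CPM in Fz7-21S at that time. Other sums that did not overlap between dFz7-21 and DMSO at 24 h were those of Paneth markers (1962 to 2248 CPM against 2810.2 to 3253 CPM), goblet markers (1079 to 1235 CPM against 810.1 to 881 CPM), enteroendocrine markers (204 to 257 CPM against 171 to 186 CPM), immune markers (9.67 to 10.9 CPM against 5.52 to 7.04 CPM), mesenchymal markers (9.47 to 1024 CPM against 6.74 to 8.49 CPM) and epithelial markers (6644 to 7291 CPM against 6157 to 6626 CPM). Between Fz7-21S and DMSO at 24 h the goblet sum did not overlap (897 to 1546 CPM with Fz7-21S). In bulk RNA, fewer cells of a type and less RNA per cell cannot be told apart, and the part of these shifts in the values below was not tested.

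Levels of the members can be set against each other only per length, and the deposited RPKM (reads scaled by gene length and library size) serve for this. In DMSO at 24 h, Atf4 had the highest level of the 36, 275 ± 15.9 RPKM (SD, n = 4), next to Nars, the cytosolic asparagine tRNA synthetase, at 273 ± 9.41 RPKM. Their means differed by less than either SD. Gars, the glycine synthetase, followed at 144 ± 7.60 RPKM, then Psat1 at 121 ± 5.50 RPKM, Eif4ebp1 at 116 ± 5.66 RPKM and Asns at 107 ± 5.38 RPKM. At the low end stood Gpt2 (4.82 ± 0.0758 RPKM), Adm2 (4.67 ± 0.604 RPKM), Aldh1l2 (3.54 ± 0.25 RPKM) and Vldlr (2.06 ± 0.248 RPKM), of which Gpt2 and Adm2 overlapped within their SD. Chac1, Trib3 and Ddit3, often used as readouts of the response, ranked low, with 22.0 ± 1.85 RPKM, 10.5 ± 0.768 RPKM and 8.97 ± 1.35 RPKM.

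The module also moved with time in culture in the absence of peptide, which sets the baseline. Between 6 h and 24 h in DMSO, 25 members rose and 1 fell, where 27.3% of all tested genes rose and 24.9% fell (edgeR quasi-likelihood test, Benjamini-Hochberg adjusted p under 0.05, the threshold used throughout). Changes given as a value ± SE are log2 changes with their edgeR adjusted p. The member median was a log2 change of 0.37. Over the same interval in DMSO the epithelial marker sum was 9883 to 11336 CPM at 6 h and 6157 to 6626 CPM at 24 h. The enteroendocrine sum was 258 to 319 CPM at 6 h and 171 to 186 CPM at 24 h and the tuft sum 16.9 to 18.2 CPM at 6 h and 13.0 to 15.9 CPM at 24 h. All 3 sums were lower at 24 h without overlap, and their part in the members' change was not tested. Chac1, an enzyme that degrades glutathione, went from 8.47, 8.40, 8.30 and 6.64 CPM at 6 h to 36.8, 37.8, 33.4 and 31.3 CPM at 24 h, a log2 change of 2.13 ± 0.08 (SE, adjusted p = 2.94e-16). Pck2, the mitochondrial phosphoenolpyruvate carboxykinase, rose by 1.90 ± 0.07 (SE, adjusted p = 8.13e-16), Trib3 by 1.38 ± 0.09 (SE, adjusted p = 3.19e-12) and Gpt2, an alanine transaminase, by 1.19 ± 0.07 (SE, adjusted p = 3.98e-13). Wars, the tryptophan tRNA synthetase, was the member that fell, by 0.22 ± 0.04 (SE, adjusted p = 4.10e-05). Atf4 itself did not pass the test (0.06 ± 0.07 SE, adjusted p = 0.536), nor did Ddit3 (0.03 ± 0.15 SE, adjusted p = 0.872). Each peptide is therefore compared below with DMSO of the same time.

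At 24 h most of the module was higher in organoids given dFz7-21 than in those given DMSO. Of the 36 members 28 rose and 3 fell, where 18.2% of all tested genes rose and 17.7% fell. The member median was a log2 change of 0.28, and the median over all genes was -0.01. Libraries of the 2 groups did not overlap for 25 members that were higher and 3 that were lower, a pattern found in 19.4% and 19% of all genes. The largest rises were those of Adm2, Trib3, Chac1 and Atf5, with log2 changes of 1.12, 0.88, 0.87 and 0.77. Ddit4, Slc7a5 and Wars fell, by 0.28, 0.28 and 0.19 on the log2 scale. Aldh1l2, Sesn2, Nupr1, Slc7a1 and Ppp1r15a did not pass the test. Leaving out the 3 libraries with mesenchymal transcripts left 23 members higher and the same 3 lower. The calls lost were those of Shmt2, Pck2, Cebpb, Vldlr and Stc2, with adjusted p between 0.0648 and 0.181. Leaving out 5 libraries, those 3 with DMSO 24 h replicate 2 and Fz7-21S 24 h replicate 4, kept all 31 calls and added Aldh1l2 as higher. The share of all genes called in the fits that left out libraries is not given here.

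Fz7-21S raised part of the same list at 24 h against a background of very few calls. It raised 15 members and lowered 0, where 0.259% of all tested genes rose and 0 fell, so that members made up 15 of the 40 genes called (37.5%). Since the members were chosen with earlier results of these data known, these shares describe the list and are not independent support. By DESeq2 19 members rose, of 136 genes called in all, and at an unadjusted p under 0.05 edgeR counted 28 of the 36 members and 3673 of all genes. The member median was a log2 change of 0.27, next to 0.01 over all genes, and 34 members had a positive sign. Libraries of the 2 groups did not overlap for 21 members, all higher with Fz7-21S, where 2.74% of all genes were higher and 2.52% lower without overlap. The comparison shares its DMSO libraries with that of dFz7-21. This count rests on the estimate of spread from all 24 libraries: a fit on the 8 libraries of the 2 groups called 0 members and 0 genes by edgeR, with 22 members at an unadjusted p under 0.05. The same 2-group fit without Fz7-21S 24 h replicate 4, an alternative chosen after seeing the data, called 14 members, 13 of them among the 15. With all groups in the fit and that library left out, all 15 calls remained and Aldh1l2 was added, for 16 in all. Leaving out other single libraries gave 9 calls without DMSO 24 h replicate 2 or replicate 4, and 21 without Fz7-21S 24 h replicate 1. Those gained without that replicate were Atf4, Ddit3, Cebpb, Gars, Nars and Sars, with adjusted p up to 0.0432, and Gars was also called without DMSO 24 h replicate 1 (0.0395). Without the 5 libraries 12 of the 15 calls were kept, those of Shmt2, Mthfd2 and Slc3a2 were lost and Aldh1l2 was added. For the fits that left out libraries, the share of all genes called is not given here.

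Among the transcription factors, 5 of 6 rose with dFz7-21 and 2 of 6 with Fz7-21S at 24 h. Atf4 transcripts stood at 517, 478, 477 and 449.8 CPM in the 4 DMSO libraries, 524, 542, 537 and 732 CPM with Fz7-21S and 607, 610.0, 591 and 610.3 CPM with dFz7-21. All 4 dFz7-21 libraries were above every DMSO library, and so were all 4 of Fz7-21S, among which replicate 4 was far above the rest. The log2 change was 0.33 ± 0.07 (SE, adjusted p = 8.42e-04) with dFz7-21 and 0.28 ± 0.07 (SE, adjusted p = 0.125) with Fz7-21S, and without replicate 4 the latter was 0.15 (adjusted p = 0.251). Atf5, a related factor that is translated by the same mechanism as ATF4, measured 132, 140.1, 122 and 124 CPM in the 4 DMSO libraries, 145, 170.0, 183 and 219.9 CPM with Fz7-21S and 213, 215, 233 and 224 CPM with dFz7-21. Both peptide groups lay above DMSO without overlap. It rose by 0.77 ± 0.08 (SE, adjusted p = 5.76e-08) with dFz7-21, a 1.71-fold difference, and by 0.47 ± 0.08 (SE, adjusted p = 0.00484) with Fz7-21S. Reads of Atf5 are uncertain where its gene model overlaps Nup62 and Il4i1b, since the counting of strand is not stated.

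Ddit3, which encodes the stress factor CHOP, measured 18.9, 13.2, 16.7 and 15.5 CPM in the 4 DMSO libraries, 17.9, 18.4, 19.8 and 33.0 CPM with Fz7-21S and 19.0, 25.2, 27.1 and 24.6 CPM with dFz7-21. Every dFz7-21 library exceeded all DMSO libraries, by a small margin for 1 of them, while 2 of the 4 Fz7-21S libraries lay within the DMSO range and replicate 4 stood far above it. The change was 0.57 ± 0.15 (SE, adjusted p = 0.00339) with dFz7-21. With Fz7-21S it was 0.46 ± 0.15 (SE, adjusted p = 0.162) and did not pass, and it was 0.21 (adjusted p = 0.65) without replicate 4. Ddit3 overlaps the gene models of Mars1 and Mbd6, so its counts are uncertain as well. Nupr1, a small stress-induced chromatin protein, behaved unlike the other factors. It stood at 38.4, 35.5, 35.2 and 34.3 CPM in the 4 DMSO libraries, 46.5, 50.3, 53.2 and 65.8 CPM with Fz7-21S and 34.9, 36.3, 37.6 and 30.1 CPM with dFz7-21. Fz7-21S libraries were all above DMSO, by 0.59 ± 0.09 (SE, adjusted p = 0.00305), and dFz7-21 libraries overlapped DMSO, at -0.05 ± 0.09 (SE, adjusted p = 0.739). Cebpb and Cebpg, dimer partners of ATF4, rose with dFz7-21 by 0.44 ± 0.15 (SE, adjusted p = 0.0275) and 0.18 ± 0.05 (SE, adjusted p = 0.00665) and did not pass with Fz7-21S (0.40 ± 0.15 SE, adjusted p = 0.164 and 0.08 ± 0.05 SE, adjusted p = 0.322). The Cebpb call was lost when any of 4 single libraries was left out (DMSO 24 h replicates 3 and 4, dFz7-21 24 h replicates 1 and 3), with adjusted p of 0.0586 to 0.0976.

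**Figure D1:**
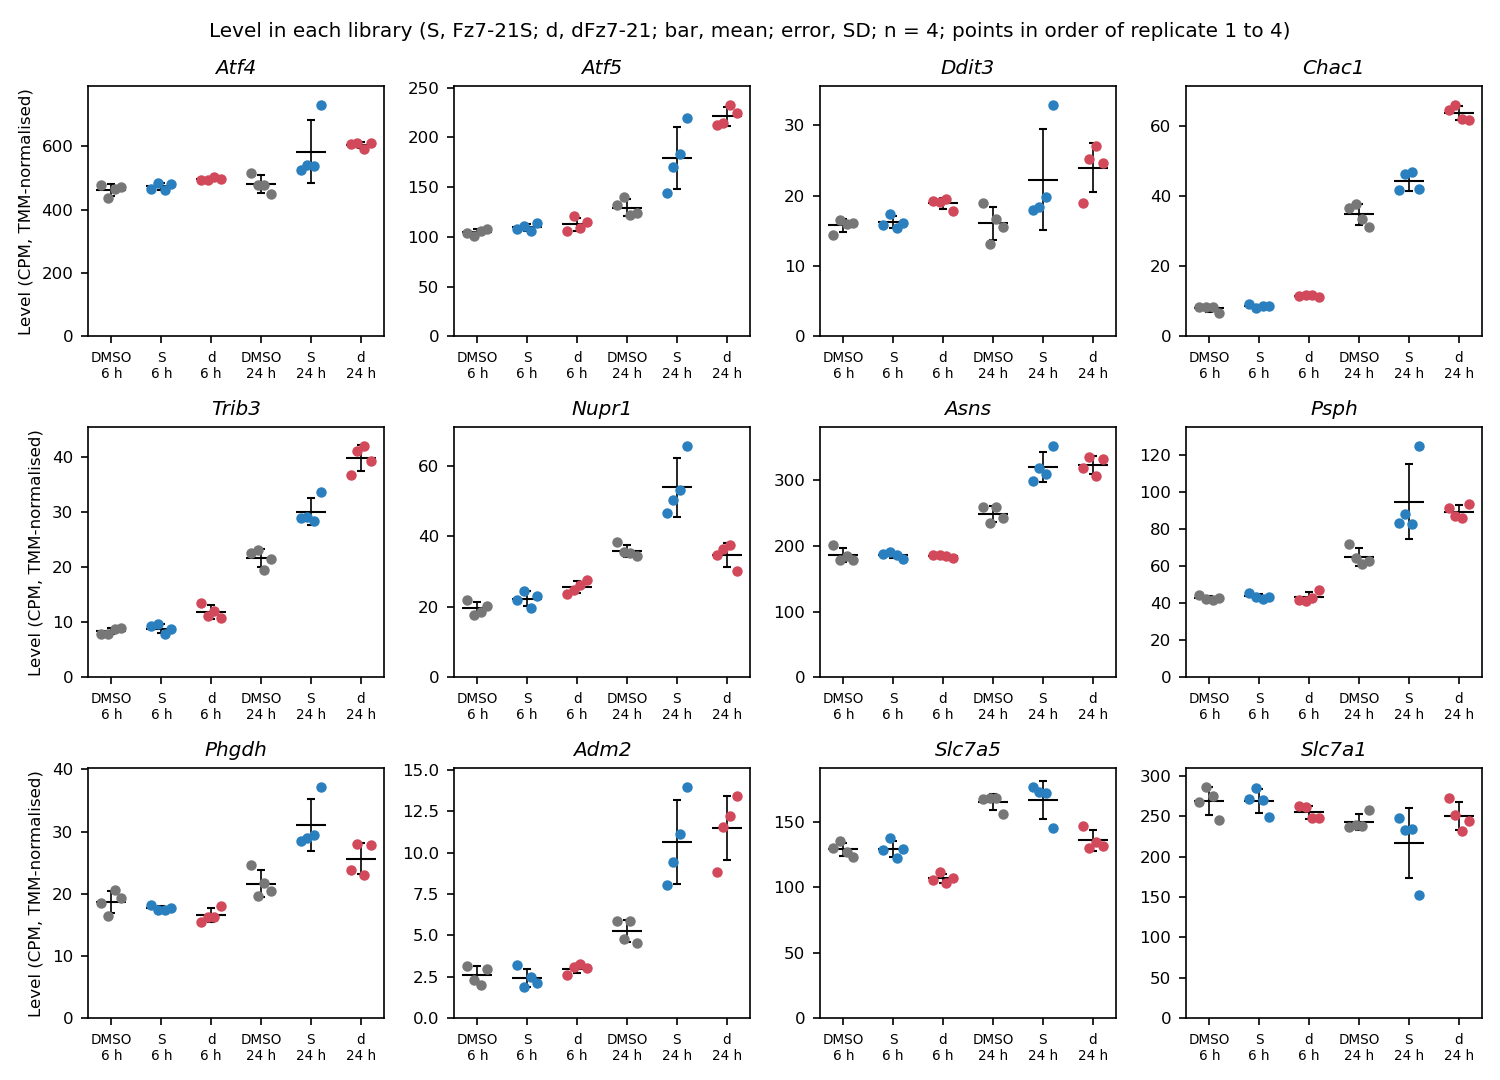
Level of 12 members in each of the 24 libraries, in TMM-scaled CPM on axes from 0; points are libraries, bars the mean and SD of 4 (grey, DMSO; blue, Fz7-21S, marked S; red, dFz7-21, marked d). In Chac1 the 24 h groups are ordered DMSO, Fz7-21S, dFz7-21 without overlap, in Nupr1 only Fz7-21S is above DMSO at 24 h, and in Atf4 and Psph the fourth Fz7-21S library of 24 h stands above the other 3.

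Of the 6 feedback and signalling genes, 3 rose and 1 fell with dFz7-21 at 24 h, and 3 rose with Fz7-21S. Chac1 was graded over the 3 groups. It measured 36.8, 37.8, 33.4 and 31.3 CPM in the 4 DMSO libraries, 41.8, 46.3, 47.0 and 42.2 CPM with Fz7-21S and 64.7, 66.2, 62.2 and 61.9 CPM with dFz7-21. The 3 groups did not overlap, with Fz7-21S between DMSO and dFz7-21. The log2 change was 0.87 ± 0.07 (SE, adjusted p = 8.17e-10) with dFz7-21, or 1.83-fold, and 0.35 ± 0.07 (SE, adjusted p = 0.0223) with Fz7-21S, or 1.27-fold. The latter call was lost when DMSO 24 h replicate 3 or 4 or Fz7-21S 24 h replicate 2 or 3 was left out, with adjusted p of 0.0901 to 0.106. Trib3, a pseudokinase that binds and restrains ATF4, measured 22.5, 23.1, 19.4 and 21.5 CPM in the 4 DMSO libraries, 28.9, 29.2, 28.4 and 33.7 CPM with Fz7-21S and 36.7, 41.1, 42.1 and 39.3 CPM with dFz7-21. Again the groups did not overlap. It rose by 0.88 ± 0.08 (SE, adjusted p = 9.46e-09) and 0.47 ± 0.08 (SE, adjusted p = 0.00506) with the respective peptides, 1.84-fold and 1.39-fold. Eif4ebp1, the translation inhibitor 4E-BP1, measured 121, 115, 116 and 107 CPM in the 4 DMSO libraries, 129, 144, 154 and 192 CPM with Fz7-21S and 171, 169, 182 and 172 CPM with dFz7-21. All peptide libraries were above all DMSO libraries. The change was 0.60 ± 0.08 (SE, adjusted p = 2.40e-06) with dFz7-21 and 0.43 ± 0.08 (SE, adjusted p = 0.01) with Fz7-21S, the second lost without DMSO 24 h replicate 2 or 4 (adjusted p 0.0529 to 0.0585).

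Ddit4, also known as REDD1 and an inhibitor of the growth kinase complex mTORC1, went the other way under dFz7-21. It stood at 162, 184, 190.1 and 158 CPM in the 4 DMSO libraries, 165, 166, 209 and 208 CPM with Fz7-21S and 132, 141, 157 and 142 CPM with dFz7-21. All 4 dFz7-21 libraries were below every DMSO library, and Fz7-21S overlapped DMSO. It fell by 0.28 ± 0.07 (SE, adjusted p = 0.00527) with dFz7-21 and changed by 0.11 ± 0.07 (SE, adjusted p = 0.354) with Fz7-21S, which did not pass. Sesn2, a leucine sensor that acts on the same complex, measured 32.1, 32.7, 32.0 and 35.0 CPM in the 4 DMSO libraries, 32.8, 33.7, 34.3 and 21.5 CPM with Fz7-21S and 39.0, 35.5, 39.8 and 36.1 CPM with dFz7-21. The dFz7-21 libraries lay just above DMSO without passing the test (0.19 ± 0.11 SE, adjusted p = 0.205), and Fz7-21S replicate 4 was the lowest of all 12 (-0.11 ± 0.12 SE, adjusted p = 0.575 for that group). Ppp1r15a, the GADD34 subunit that directs dephosphorylation of eIF2 alpha, passed with neither peptide (0.17 ± 0.10 SE, adjusted p = 0.211 and 0.09 ± 0.10 SE, adjusted p = 0.606).

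All 6 genes grouped here under amino acid synthesis rose with each peptide at 24 h. Among them is the carboxykinase Pck2, which does not itself make an amino acid. It was the one role in which this held with all libraries. Calls of Phgdh, Psat1 and Pck2 were lost in some fits without 1 library, as given below. Asns, asparagine synthetase, measured 258, 235, 259 and 242 CPM in the 4 DMSO libraries, 299, 319, 309 and 352 CPM with Fz7-21S and 318, 335, 306 and 332 CPM with dFz7-21. Both peptide groups were above DMSO without overlap and overlapped each other. It rose by 0.38 ± 0.05 (SE, adjusted p = 3.31e-06) with dFz7-21 and by 0.36 ± 0.05 (SE, adjusted p = 6.50e-04) with Fz7-21S, a 1.30-fold and 1.29-fold difference. Phgdh, which begins serine synthesis from glycolysis, measured 24.7, 19.7, 21.8 and 20.4 CPM in the 4 DMSO libraries, 28.5, 29.0, 29.5 and 37.2 CPM with Fz7-21S and 23.9, 27.9, 23.1 and 27.8 CPM with dFz7-21. Fz7-21S libraries were above all DMSO libraries (0.52 ± 0.09 SE, adjusted p = 0.00736), whereas dFz7-21 overlapped DMSO and passed narrowly (0.24 ± 0.09 SE, adjusted p = 0.0448). The dFz7-21 call was lost when any of 5 libraries was left out (DMSO 24 h replicates 2, 3 and 4, dFz7-21 24 h replicates 2 and 4, adjusted p 0.0769 to 0.133), and the Fz7-21S call without DMSO 24 h replicate 2 (adjusted p 0.0603).

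Psat1, the next enzyme of serine synthesis, measured 345, 329, 334 and 309 CPM in the 4 DMSO libraries, 389, 384, 380.0 and 362 CPM with Fz7-21S and 399, 375, 373 and 409.6 CPM with dFz7-21. Each peptide group was above DMSO without overlap. The increases were small, 0.24 ± 0.04 (SE, adjusted p = 1.05e-04) and 0.20 ± 0.04 (SE, adjusted p = 0.0452), and the Fz7-21S call was lost without any one of the 4 DMSO 24 h libraries or Fz7-21S replicate 2 or 3 (adjusted p 0.0702 to 0.164) and without the 3 libraries with mesenchymal transcripts (0.0798), though not without the 5 libraries (0.0106). Psph, the last enzyme of the pathway, measured 71.9, 64.5, 61.0 and 63.1 CPM in the 4 DMSO libraries, 83.2, 88.1, 82.9 and 125 CPM with Fz7-21S and 91.5, 87.0, 86.1 and 93.6 CPM with dFz7-21. No peptide library fell into the DMSO range, and Fz7-21S replicate 4 was the highest. Psph rose by 0.46 ± 0.09 (SE, adjusted p = 3.33e-04) with dFz7-21 and by 0.54 ± 0.09 (SE, adjusted p = 0.00457) with Fz7-21S, and the latter was 0.37 (adjusted p = 2.56e-04) without replicate 4. Its gene model overlaps Cct6a, an abundant transcript, so its counts are uncertain. Pck2 and Gpt2 rose with dFz7-21 by 0.19 ± 0.07 (SE, adjusted p = 0.0389) and 0.45 ± 0.06 (SE, adjusted p = 5.20e-06), and with Fz7-21S by 0.43 ± 0.07 (SE, adjusted p = 0.00354) and 0.39 ± 0.06 (SE, adjusted p = 0.00337). The Pck2 call with dFz7-21 was lost without dFz7-21 24 h replicate 1 or DMSO 24 h replicate 2 or 4 (adjusted p 0.0771 to 0.101).

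In the mitochondrial one-carbon pathway, which passes units from serine to folate, 2 of 3 genes rose with each peptide at 24 h. Shmt2, the hydroxymethyltransferase that takes the unit from serine, measured 230.4, 224, 237 and 229.5 CPM in the 4 DMSO libraries, 257, 269, 286 and 308 CPM with Fz7-21S and 261, 238, 252 and 272 CPM with dFz7-21. Both peptide groups were above DMSO, with dFz7-21 replicate 2 only just so. Its change was 0.15 ± 0.06 (SE, adjusted p = 0.037) with dFz7-21 and 0.28 ± 0.06 (SE, adjusted p = 0.0199) with Fz7-21S. Neither call was firm: the first was lost without dFz7-21 24 h replicate 1 or 4 or DMSO 24 h replicate 2 or 4 (adjusted p 0.055 to 0.0911), the second without DMSO 24 h replicate 1, 2 or 4 or Fz7-21S 24 h replicate 3 (0.0618 to 0.118). Mthfd2, which oxidises the folate-bound unit, rose by 0.35 ± 0.06 (SE, adjusted p = 2.04e-05) and 0.29 ± 0.06 (SE, adjusted p = 0.0159). The Fz7-21S call on Mthfd2 was lost without DMSO 24 h replicate 2, 3 or 4 or Fz7-21S 24 h replicate 3 (adjusted p 0.0543 to 0.0752). Aldh1l2, which releases the unit as carbon dioxide, did not pass with dFz7-21 (0.24 ± 0.16 SE, adjusted p = 0.249). With Fz7-21S it did not pass with all libraries (0.42 ± 0.16 SE, adjusted p = 0.164) and rose without replicate 4, by 0.62 (adjusted p = 7.32e-05), with that library at 18.1 CPM and the other 3 at 38.4 to 40.1 CPM.

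The 4 transporters divided. Slc3a2 (the 4F2 heavy chain) and Slc6a9 (a glycine transporter) rose with dFz7-21, by 0.36 ± 0.06 (SE, adjusted p = 2.18e-05) and 0.32 ± 0.07 (SE, adjusted p = 8.37e-04). With Fz7-21S Slc3a2 rose by 0.29 ± 0.06 (SE, adjusted p = 0.0171), lost without DMSO 24 h replicate 2, 3 or 4 or Fz7-21S 24 h replicate 3 (adjusted p 0.0612 to 0.124), and Slc6a9 did not pass (0.21 ± 0.07 SE, adjusted p = 0.162). Slc7a5, the LAT1 light chain that pairs with Slc3a2 to import leucine and other large neutral amino acids, moved against its partner under dFz7-21. It measured 167, 168, 168 and 156 CPM in the 4 DMSO libraries, 177, 172, 172 and 145 CPM with Fz7-21S and 147, 129.7, 135 and 131 CPM with dFz7-21. All dFz7-21 libraries were below DMSO. Slc7a5 fell by 0.28 ± 0.06 (SE, adjusted p = 4.18e-04) with dFz7-21, and with Fz7-21S the change was 0.02 ± 0.06 (SE, adjusted p = 0.889) with a 95% interval of -0.10 to 0.13. Slc7a1, a carrier of arginine and lysine, measured 236, 239.7, 238 and 258 CPM in the 4 DMSO libraries, 248, 233, 234 and 153 CPM with Fz7-21S and 272, 252, 232 and 245 CPM with dFz7-21. Neither change passed the test (0.04 ± 0.09 SE, adjusted p = 0.758 and -0.16 ± 0.09 SE, adjusted p = 0.282), and Fz7-21S replicate 4 was the lowest of the 12 libraries.

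Cytosolic tRNA synthetases, which charge tRNA with their amino acid, had 7 of 8 calls upward with dFz7-21 and 0 of 8 with Fz7-21S. Those that rose with dFz7-21 at 24 h were Nars (0.39), Tars (0.33), Aars (0.30), Gars (0.28), Sars (0.27), Cars (0.26) and Mars1 (0.26), with adjusted p between 6.53e-08 and 0.00253. Wars fell by 0.19 ± 0.04 (SE, adjusted p = 6.39e-04). With Fz7-21S 0 of 8 passed by edgeR, 6 had an unadjusted p under 0.05, and DESeq2 called 3 (Gars, Nars and Sars). The log2 changes with Fz7-21S ran from 0.02 in Wars to 0.25 in Sars. Nars, the most abundant of them, went from 729.8 ± 23.7 CPM (SD, n = 4) in DMSO to 813 ± 39.6 CPM (SD, n = 4) with Fz7-21S and 955 ± 22.1 CPM (SD, n = 4) with dFz7-21. Counts of Aars, Wars and Mars1 include regions shared with Ddx19b, Wdr25 and Ddit3.

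Secreted proteins and receptors rose in 3 of 3 cases with dFz7-21 and in 1 of 3 with Fz7-21S. Adm2, a secreted peptide hormone of the calcitonin family, had the largest change of the whole list under either peptide although its level was low. It measured 5.85, 4.81, 5.85 and 4.57 CPM in the 4 DMSO libraries, 8.04, 9.46, 11.1 and 14.0 CPM with Fz7-21S and 8.82, 11.5, 12.2 and 13.4 CPM with dFz7-21. No peptide library was as low as the highest DMSO library. The rise was 1.12 ± 0.17 (SE, adjusted p = 1.78e-05) with dFz7-21 and 1.01 ± 0.17 (SE, adjusted p = 0.00506) with Fz7-21S, or 2.18-fold and 2.01-fold, and 0.85 (adjusted p = 0.00826) for Fz7-21S without replicate 4. Stc2, the secreted glycoprotein stanniocalcin 2, measured 23.5, 24.6, 22.9 and 19.0 CPM in the 4 DMSO libraries, 23.8, 25.2, 30.7 and 28.6 CPM with Fz7-21S and 23.5, 23.6, 31.5 and 30.4 CPM with dFz7-21. Its groups overlapped. It passed with dFz7-21 (0.28 ± 0.10 SE, adjusted p = 0.0405) and not with Fz7-21S (0.27 ± 0.10 SE, adjusted p = 0.165), and the difference between the peptides was 0.01 with a 95% interval of -0.20 to 0.22. The call was lost without dFz7-21 24 h replicate 3 or 4 or DMSO 24 h replicate 3 or 4 (adjusted p 0.0649 to 0.153). Vldlr, a lipoprotein receptor, showed 0.24 ± 0.08 (SE, adjusted p = 0.0241) and 0.21 ± 0.08 (SE, adjusted p = 0.166), and its dFz7-21 call was lost without dFz7-21 24 h replicate 2 or DMSO 24 h replicate 1 or 2 (adjusted p 0.0502 to 0.0992).

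**Figure D2:**
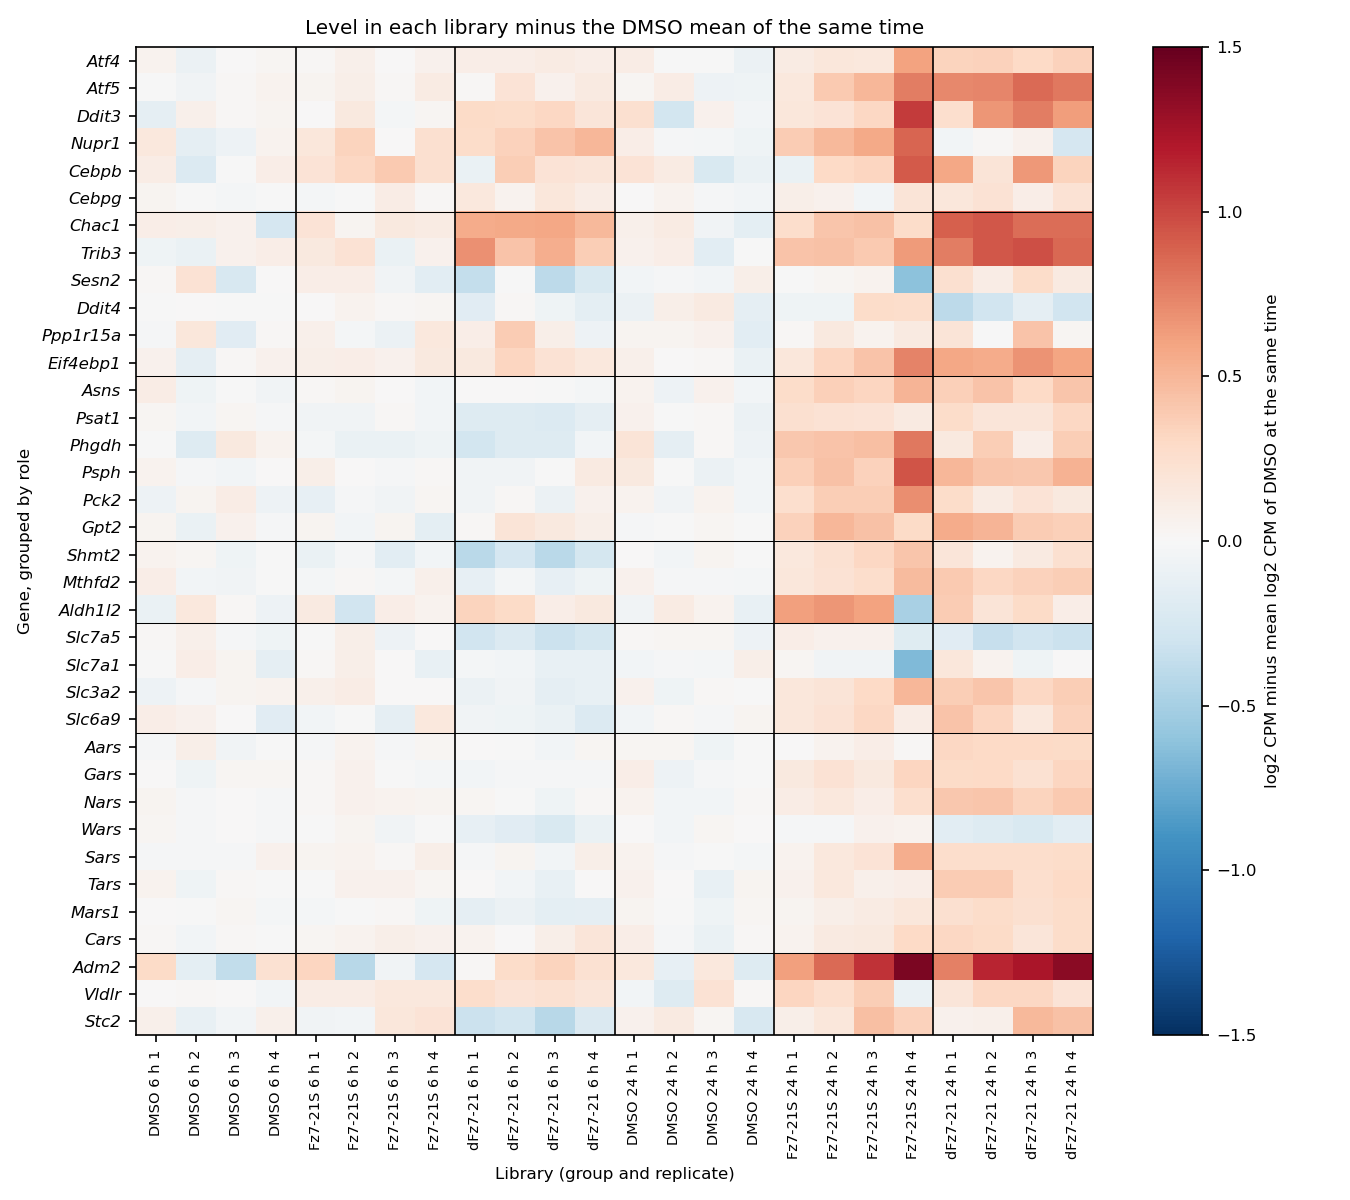
Log2 CPM of each member in each library minus the mean log2 CPM of the 4 DMSO libraries of the same time (red, above; blue, below; columns are libraries in order of group and replicate, rows are members grouped by role). At 24 h red runs through most rows of both peptides, Ddit4, Slc7a5 and Wars are blue with dFz7-21, and Fz7-21S 24 h replicate 4 is the deepest red or blue column of its group in many rows.

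At 6 h the list had no call with Fz7-21S and calls in both directions with dFz7-21. With Fz7-21S 0 of 36 members passed by edgeR or by DESeq2, 0 had an unadjusted p under 0.05, and 0.00648% of all genes rose and 0 fell. The member median was 0.02 on the log2 scale. With dFz7-21 3 members rose and 5 fell, where 6.05% of all genes rose and 5% fell, and the member median was -0.005. The count that rose is near the share over all genes. At that time the stem cell marker sum was 1178 to 1394 CPM with dFz7-21, 1685 to 1826 CPM with DMSO and 1541 to 1660.5 CPM with Fz7-21S, no 2 of which overlapped. The goblet sum was 985 to 1032 CPM with dFz7-21 and 766 to 934 CPM with DMSO, and the epithelial sum 12142 to 12591 CPM and 9883 to 11336 CPM, again without overlap. The part of these shifts in the members' changes was not tested. The 3 that rose were Chac1, Trib3 and Nupr1, each of which has the core TGATGNAA in its start-site window. Members with that match numbered 9, of which 3 rose and 0 fell at 6 h, against 0 and 3 of the 21 with a window but no match. The other members that fell had no window among those found. Median log2 changes at 6 h were -0.006 with the match and -0.075 without it. At 24 h 8 of the 9 and 17 of the 21 rose with dFz7-21, and 5 of the 9 and 9 of the 21 with Fz7-21S. The share called among all genes with the match was not computed, so these counts describe the list only.

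Chac1 at 6 h stood at 8.47, 8.40, 8.30 and 6.64 CPM with DMSO, 9.14, 8.16, 8.73 and 8.62 CPM with Fz7-21S and 11.6, 11.7, 11.8 and 11.1 CPM with dFz7-21. The 4 dFz7-21 libraries were above the other 8. The rise was 0.54 ± 0.08 (SE, adjusted p = 3.68e-05), or 1.45-fold. Trib3 measured 7.94, 7.80, 8.72 and 8.89 CPM with DMSO, 9.24, 9.64, 7.78 and 8.73 CPM with Fz7-21S and 13.4, 11.2, 12.1 and 10.7 CPM with dFz7-21. Here too dFz7-21 lay above both other groups, by 0.51 ± 0.09 (SE, adjusted p = 2.76e-04) against DMSO. Nupr1 measured 21.9, 17.8, 18.5 and 20.2 CPM with DMSO, 22.0, 24.6, 19.6 and 23.1 CPM with Fz7-21S and 23.6, 24.8, 26.3 and 27.5 CPM with dFz7-21, all dFz7-21 libraries above DMSO but not above Fz7-21S. It rose by 0.38 ± 0.10 (SE, adjusted p = 0.00983), and this call was lost when the 3 libraries with mesenchymal transcripts, 2 of them DMSO libraries of 6 h, were left out (adjusted p 0.0651). It stood without the 5 libraries, which include those 3 (adjusted p 0.00212).

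The 5 members that fell at 6 h with dFz7-21 were an enzyme of serine synthesis, the serine hydroxymethyltransferase, a leucine carrier and a pair of synthetases. Shmt2 measured 162, 159, 149 and 155 CPM with DMSO, 146, 154, 140.3 and 151 CPM with Fz7-21S and 117, 131, 118 and 129 CPM with dFz7-21. The dFz7-21 libraries were the 4 lowest. It fell by 0.33 ± 0.06 (SE, adjusted p = 2.49e-04). Slc7a5 measured 130.0, 135, 127 and 123 CPM with DMSO, 129, 137, 122 and 129 CPM with Fz7-21S and 105, 112, 103 and 107 CPM with dFz7-21. Again all dFz7-21 libraries were below the rest, and the fall was 0.27 ± 0.06 (SE, adjusted p = 0.00212). Psat1 measured 206, 197, 208 and 201 CPM with DMSO, 196, 195, 206 and 197 CPM with Fz7-21S and 178, 177, 176 and 185 CPM with dFz7-21. Its dFz7-21 libraries were the lowest, and it fell by 0.18 ± 0.04 (SE, adjusted p = 0.00593). Wars and Mars1 fell by 0.16 ± 0.04 (SE, adjusted p = 0.00908) and 0.12 ± 0.04 (SE, adjusted p = 0.0363). Without the 3 libraries with mesenchymal transcripts Shmt2 was the one of these 5 that still passed (adjusted p 0.0217), and the others had 0.0547 for Psat1, 0.0869 for Slc7a5, 0.117 for Wars and 0.239 for Mars1. Without the 5 libraries, which include those 3, Shmt2 (1.53e-04), Slc7a5 (0.00149), Psat1 (0.00226) and Wars (0.0112) passed, and Mars1 did not (0.0532). Phgdh and Slc3a2 were added as lower and Vldlr as higher. Mars1 was also lost without any one of 6 single libraries (DMSO 6 h replicates 1, 2 and 3, dFz7-21 6 h replicates 1, 3 and 4, adjusted p 0.0609 to 0.108) and Wars without dFz7-21 6 h replicate 3 (0.0501).

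The other members had no call against DMSO at 6 h. Atf4 measured 478, 435, 464 and 471 CPM with DMSO, 466, 485, 463 and 481 CPM with Fz7-21S and 494, 495, 503 and 497 CPM with dFz7-21, a change of 0.11 ± 0.07 (SE, adjusted p = 0.432) with dFz7-21. Its dFz7-21 libraries lay above all others by a narrow margin. Asns spanned 178 to 201 CPM over the 12 libraries of 6 h, Atf5 101 to 121 CPM, Psph 41.4 to 47.4 CPM, Phgdh 15.5 to 20.7 CPM and Ddit3 14.4 to 19.5 CPM. Eif4ebp1 spanned 64.0 to 87.7 CPM, Ddit4 72.2 to 84.1 CPM, Sesn2 22.5 to 34.3 CPM, Slc7a1 245 to 287 CPM, Stc2 9.78 to 15.0 CPM and Adm2 1.92 to 3.25 CPM. Each of these ranges covers all 3 treatments, and none of these changes passed.

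The effect of dFz7-21 itself differed between 6 h and 24 h for 21 members when tested as an interaction of peptide and time. For 20 members the effect was more positive at 24 h and for 1, Nupr1, less, where 7.37% and 5.78% of all genes changed in these directions. The largest was Adm2, with 0.20 at 6 h and 1.12 at 24 h (difference 0.93 ± 0.26 SE, adjusted p = 0.0168). Atf5 went from 0.11 to 0.77 (difference 0.67 ± 0.11 SE, adjusted p = 2.50e-04), and Stc2 from -0.31 to 0.28 (difference 0.58 ± 0.15 SE, adjusted p = 0.0102). Shmt2 and Psat1 changed sign: Shmt2 went from -0.33 to 0.15 (difference 0.48 ± 0.08 SE, adjusted p = 1.59e-04) and Psat1 from -0.18 to 0.24 (0.42 ± 0.06 SE, adjusted p = 3.16e-05). Nupr1 went from 0.38 to -0.05 (difference -0.43 ± 0.14 SE, adjusted p = 0.0368), a call lost with the 3 mesenchymal libraries left out (0.0532). Leaving those 3 out kept 14 of the 21 calls, and the other 6 lost were Chac1, Trib3, Psph, Adm2, Stc2 and Eif4ebp1, with adjusted p from 0.0551 to 0.255. Leaving out the 5 libraries, which include those 3, kept 20 of the 21, Nupr1 among them, lost Chac1 (adjusted p 0.0618) and added Atf4, Pck2, Sars and Cars. When 1 of the 16 libraries was left out at a time, the Nupr1 call was lost without dFz7-21 6 h replicate 3 or 4, dFz7-21 24 h replicate 1, 2 or 4, DMSO 6 h replicate 2 or 3 or DMSO 24 h replicate 1, 2 or 3 (adjusted p 0.0508 to 0.114). That of Phgdh (0.42 ± 0.13 SE, adjusted p = 0.0376) was lost without dFz7-21 6 h replicate 1, 2 or 3, dFz7-21 24 h replicate 2 or 4, DMSO 6 h replicate 1, 3 or 4 or DMSO 24 h replicate 2, 3 or 4 (0.0516 to 0.0882). Chac1 was lost without dFz7-21 6 h replicate 2 or 4, DMSO 6 h replicate 1, 2 or 3 or DMSO 24 h replicate 3 or 4 (0.0526 to 0.0828) and Trib3 without dFz7-21 6 h replicate 2 or 4, DMSO 6 h replicate 3 or 4 or DMSO 24 h replicate 3 or 4 (0.0631 to 0.0959). Psph was lost without DMSO 24 h replicate 3 (0.0515) and Eif4ebp1 without DMSO 24 h replicate 4 (0.0518). Slc7a5 and Wars were lower at both times, and their interaction did not pass (-0.01 ± 0.08 SE, adjusted p = 0.963 and -0.03 ± 0.06 SE, adjusted p = 0.797). For Fz7-21S the interaction passed for 0 of 36 members by edgeR, where 0% of all genes passed. By DESeq2 it passed for 5 members (Asns, Phgdh, Shmt2, Pck2 and Gpt2), of 11 genes called in all.

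The 2 peptides were compared directly at each time, over 36 members in each of 2 contrasts, with p-values adjusted over all tested genes. Their doses are not given, so matched time is the only matching known. At 24 h 8 members were higher with dFz7-21 than with Fz7-21S and 6 were lower, where 16.5% of all genes were higher and 17.2% lower. In both directions these counts are near the share over all genes, so they do not set the members apart. Chac1 differed by 0.52 ± 0.07 (SE, adjusted p = 2.56e-06) and Trib3 by 0.41 ± 0.08 (SE, adjusted p = 4.00e-04), each without overlap of libraries. Atf5 differed by 0.30 ± 0.08 (SE, adjusted p = 0.00523) with overlapping libraries, Fz7-21S replicate 4 being at 219.9 CPM. Of the synthetases Aars (0.25), Nars (0.23), Tars (0.23) and Mars1 (0.15) were higher with dFz7-21, with adjusted p up to 0.00307, and Wars was lower (-0.21 ± 0.04 SE, adjusted p = 2.50e-04). Nupr1 was lower with dFz7-21 by 0.63 ± 0.09 (SE, adjusted p = 1.27e-05), Ddit4 by 0.39 ± 0.08 (SE, adjusted p = 2.87e-04) and Slc7a5 by 0.30 ± 0.06 (SE, adjusted p = 2.78e-04). Phgdh (-0.27 ± 0.09 SE, adjusted p = 0.0252), Pck2 (-0.24 ± 0.07 SE, adjusted p = 0.0102) and Sesn2 (0.30 ± 0.12 SE, adjusted p = 0.0494) also passed.

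Of the 14 calls 11 stood without Fz7-21S 24 h replicate 4, and the rest depended on that library. Without it 16 members were higher with dFz7-21 and 5 lower. The share of all genes called in that fit is not given here, so the added calls are not set apart from a change over all genes. The calls of Phgdh, Pck2 and Sesn2 were lost, at -0.15 (adjusted p = 0.166), -0.12 (adjusted p = 0.0627) and 0.18 (adjusted p = 0.0928). Sesn2 and Phgdh were also lost without dFz7-21 24 h replicate 1 or 3, with adjusted p from 0.0781 for Sesn2 and from 0.12 for Phgdh. Pck2 was also lost without dFz7-21 24 h replicate 2 (adjusted p 0.06). Those gained were Atf4 (0.20, adjusted p = 2.76e-04), Ddit3 (0.38, adjusted p = 0.00311), Eif4ebp1 (0.31, adjusted p = 3.18e-05), Mthfd2, Cebpg, Slc3a2, Gars, Sars and Cars as higher and Aldh1l2 as lower (-0.36, adjusted p = 8.24e-04). Without it 7 of 8 synthetases were higher with dFz7-21 and 1 lower. Calls that stood with and without that library were Chac1 (0.52, adjusted p = 3.57e-07 without), Trib3 (0.49, adjusted p = 8.93e-06), Atf5 (0.44, adjusted p = 3.48e-07), Nupr1 (-0.50, adjusted p = 5.36e-06), Ddit4 (-0.31, adjusted p = 7.43e-04), Slc7a5, Wars, Aars, Nars, Tars and Mars1. A fit on the 8 libraries of the 2 peptides alone called 4 members higher and 4 lower, and 2305 genes in all. The calls lost in it were those of Atf5, Nars, Mars1, Phgdh, Pck2 and Sesn2.

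**Figure D3:**
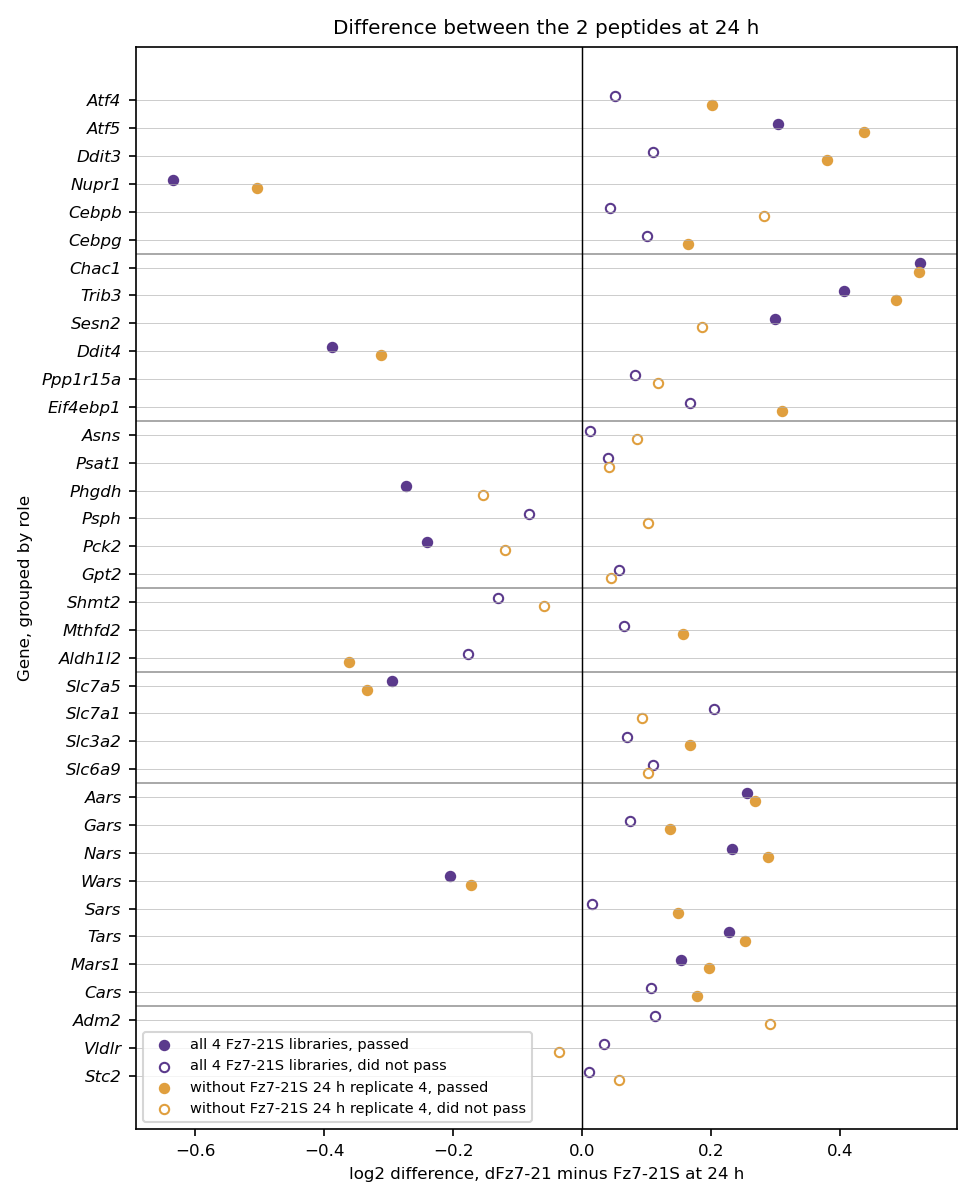
Log2 difference between dFz7-21 and Fz7-21S at 24 h for each member, with all libraries (purple) and without Fz7-21S 24 h replicate 4 (orange); filled points passed the edgeR test and open points did not. Filled points number 8 higher and 6 lower with all libraries, and 16 higher and 5 lower without that library.

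For amino acid synthesis no difference between the peptides passed both with all libraries and without Fz7-21S 24 h replicate 4. With all libraries the Asns difference was 0.01 with a 95% interval of -0.09 to 0.12, that of Psat1 0.04 (-0.05 to 0.13), that of Psph -0.08 (-0.27 to 0.11) and that of Gpt2 0.06 (-0.07 to 0.19). The Adm2 difference was 0.11 (-0.24 to 0.46) and that of Slc7a1 0.20 (0.01 to 0.40, adjusted p = 0.0999), which passed without Fz7-21S 24 h replicate 1 (0.027). Without the 5 libraries the differences of Asns and Slc7a1 passed. These intervals bound the difference in these libraries and do not show that the peptides act alike. At 6 h 2 members were higher with dFz7-21 than with Fz7-21S and 5 were lower, where 3.21% and 3.83% of all genes were. Chac1 (0.42 ± 0.08 SE, adjusted p = 0.00119) and Trib3 (0.42 ± 0.09 SE, adjusted p = 0.00323) were the higher ones. Shmt2 (-0.25 ± 0.06 SE, adjusted p = 0.00568), Slc7a5 (-0.28 ± 0.06 SE, adjusted p = 0.00315), Stc2 (-0.38 ± 0.11 SE, adjusted p = 0.0337), Psat1 (-0.15 ± 0.04 SE, adjusted p = 0.0352) and Wars (-0.15 ± 0.04 SE, adjusted p = 0.0192) were lower. Stc2 at 6 h measured 13.8, 12.1, 12.7 and 13.8 CPM with DMSO, 12.6, 12.7, 14.7 and 15.0 CPM with Fz7-21S and 10.5, 10.8, 9.78 and 11.2 CPM with dFz7-21, and the dFz7-21 libraries were the 4 lowest. The Stc2 call was lost without dFz7-21 6 h replicate 1, 2 or 3 or Fz7-21S 6 h replicate 3 or 4 (adjusted p 0.0655 to 0.118), that of Psat1 in 7 of 8 such refits, all but the one without dFz7-21 6 h replicate 4 (0.0547 to 0.121), and that of Wars without Fz7-21S 6 h replicate 2 or dFz7-21 6 h replicate 2 or 3 (0.0595 to 0.0996).

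Genes of the surrounding pathway that are not members give the setting. These lists too were chosen with earlier results of these data known. With Fz7-21S at 24 h none of the 8 comparison lists had a call by edgeR: at an unadjusted p under 0.05 they held 0 to 5 genes each, and DESeq2 called 1 gene among them, a cytosolic synthetase. With dFz7-21 at 24 h 18.2% of all tested genes rose and 17.7% fell, beside which the lists below are set. The other cytosolic synthetases had 3 higher and 3 lower of 12 (median 0.03). Rars was at 0.26, Lars at 0.21, Yars at 0.22 and Kars at -0.17 on the log2 scale. The mitochondrial synthetases had 1 higher and 2 lower of 17 (median -0.06). Other amino acid transporters had 6 higher and 3 lower of 17, led by Slc1a1, a glutamate and aspartate carrier, at 1.13, Slc7a9 at 0.71, Slc7a6 at -0.77 and Slc7a8 at 0.57. Folate and serine enzymes outside the members had 1 higher and 4 lower of 10, among them cytosolic Shmt1 at -0.41, the counterpart of the member Shmt2, and Aldh1l1 at 0.56, the counterpart of Aldh1l2.

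Upstream of ATF4, the list of eIF2 kinases, phosphatase and sensors also holds subunits of eIF2 and of eIF2B. Its genes had 3 higher and 2 lower of 15 with dFz7-21 at 24 h (median 0.01). These counts are near the 18.2% and 17.7% of all genes that rose and fell. Eif2ak3, the kinase PERK of the endoplasmic reticulum, was at 0.23, and Eif2ak4, the amino acid sensing kinase GCN2, at -0.36. Further bZIP partners and stress factors had 9 higher and 2 lower of 13, with Atf3 at 0.85, Jund at 0.52, Xbp1 at 0.43 and Nfe2l1 at 0.28. Chaperones of the endoplasmic reticulum had 9 higher and 0 lower of 18 (median 0.15), with Edem1 at 0.35, Dnajb11 and Syvn1 at 0.26 and Hspa5, the chaperone BiP, at 0.22. The list of sensors of leucine and other amino acids for mTORC1 also holds Mtor, Tsc1 and Tsc2. Its genes had 3 higher and 2 lower of 14, again near the shares over all genes. Among them Sesn3 was at -1.18 and Sesn1 at 0.26, both relatives of the member Sesn2. Each gene named here with a value passed the test.

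**Figure D4:**
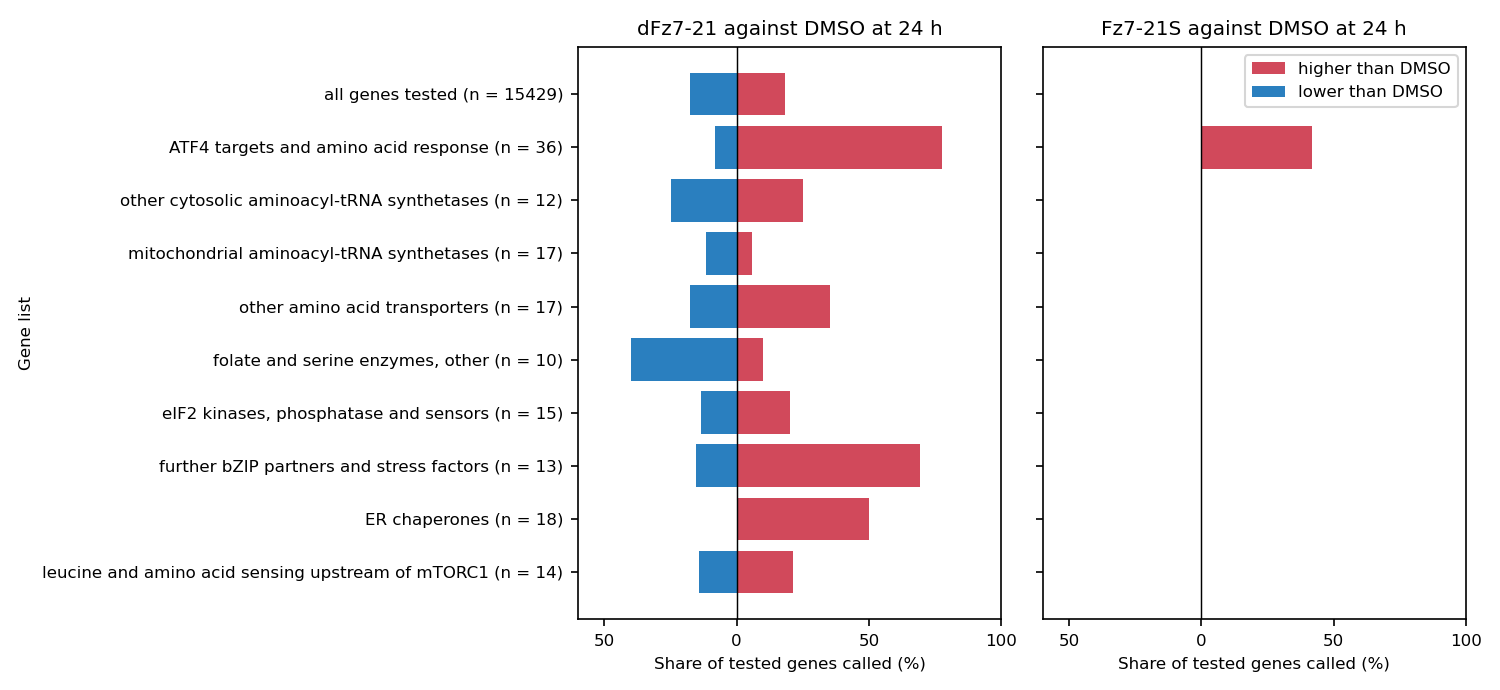
Share of tested genes called against DMSO at 24 h, in all genes, in the 36 members and in 8 comparison lists, for dFz7-21 (left panel) and Fz7-21S (right panel); red bars to the right are genes called higher and blue bars to the left genes called lower, in percent. With dFz7-21 every list has calls; with Fz7-21S the bar of the 36 members (15 higher) is the one that can be seen, since 0.259% of all genes were called and none in the comparison lists.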

How the data were processed

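The deposited files, 1 per library, list a count and an RPKM for each Entrez gene. Per the file headers, each deposited count gives the reads with a unique alignment within the gene model, and a size factor per sample enters the deposited RPKM. The submitters' processing notes name GSNAP and build GRCm38. The aligner's version, the gene models and the handling of strand were not given in the sources used here. Unique alignment and overlapping gene models can shift the counts of the genes named as uncertain. For all genes the factor between count and RPKM differed from library to library by the same constant (largest CV over genes 2.3e-15), so RPKM served for levels only.

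Groups and replicate numbers came from the sample titles. Counts of 36528 genes were filtered with filterByExpr, which kept 15429, scaled with TMM and fitted in edgeR 4.0.16 (R 4.3.3) with 1 coefficient per group over all 24 libraries. Contrasts were tested by quasi-likelihood F test with Benjamini-Hochberg adjustment over all tested genes, and the procedure was tested on simulated counts. Alternatives were RLE size factors, no low-count filter, a replicate block, the groups compared alone, DESeq2 1.42.0, leaving out each library, the 3 libraries with mesenchymal transcripts, or 5 libraries (those 3, DMSO 24 h replicate 2 and Fz7-21S 24 h replicate 4). Fits of 2 groups without Fz7-21S 24 h replicate 4 were added after seeing the data.

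Values in every library of 24 h are given for 18 members: Atf4, Ddit3, Asns, Chac1, Trib3 and Slc7a1, and the 6 called members with the largest absolute log2 change in each comparison of a peptide with DMSO or of the 2 peptides, among those whose mean log2 CPM reached 2. At 6 h some of these members are given only as a range over all libraries of that time. Genes outside the members were named from those with the 4 smallest p of their list. The members and lists were chosen with earlier results of these data known. Immune markers summed to 3.89 to 10.9 CPM, enteroendocrine to 171 to 332 CPM and tuft to 7.84 to 19.2 CPM, and endothelial and glial markers to 0.434 to 2.16 CPM over the 24 libraries. Start-site windows are from RefSeq, build GRCm38.p6.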

Additional observations from a re-analysis of the deposited data

Results flagged for a closer look

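Each of the 36 members was checked in each of the 6 groups of 4 for 1 library with a gap to the nearest of the others that is large for the range of the group (216 checks). Chance marks about 5% of such groups, and 18 were marked, 9 of them in Fz7-21S 24 h replicate 4. In that library Atf4 was at 732 CPM against 524 to 542 CPM in the other 3, Ddit3 at 33.0 CPM against 17.9 to 19.8 CPM, Trib3 at 33.7 CPM against 28.4 to 29.2 CPM, Phgdh at 37.2 CPM against 28.5 to 29.5 CPM and Psph at 125 CPM against 82.9 to 88.1 CPM. It was low for Aldh1l2 (18.1 CPM against 38.4 to 40.1 CPM), Sesn2 (21.5 CPM against 32.8 to 34.3 CPM), Slc7a5 (145 CPM against 172 to 177 CPM) and Slc7a1 (153 CPM against 233 to 248 CPM). DMSO 24 h replicate 4 was marked for Slc7a5 (156 CPM against 167 to 168 CPM), Slc7a1 (258 CPM against 236 to 239.7 CPM) and Ppp1r15a (11.6 CPM against 13.3 to 13.6 CPM). The other marks were Chac1 (6.64 CPM against 8.30 to 8.47 CPM) and Sars (247 CPM against 233 to 234 CPM) in DMSO 6 h replicate 4, Gpt2 in DMSO 24 h replicate 3 (31.6 CPM against 30.6 to 30.7 CPM), Psat1 in Fz7-21S 6 h replicate 3 (206 CPM against 195 to 197 CPM), Atf4 in dFz7-21 24 h replicate 3 (591 CPM against 607 to 610.3 CPM) and Sars in dFz7-21 24 h replicate 4 (372 CPM against 368 to 369 CPM).

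The change from DMSO with dFz7-21 differed between 6 h and 24 h for 21 members by edgeR's interaction test. On the log2 scale the difference, 24 h minus 6 h, was 0.93 for Adm2 and -0.43 for Nupr1. For the others it was 0.67 (Atf5), 0.39 (Asns), 0.33 (Chac1), 0.37 (Trib3), 0.42 (Psat1), 0.42 (Phgdh), 0.45 (Psph), 0.48 (Shmt2), 0.44 (Mthfd2), 0.58 (Stc2), 0.34 (Gpt2), 0.46 (Slc3a2), 0.42 (Slc6a9), 0.39 (Eif4ebp1), 0.30 (Aars), 0.30 (Gars), 0.39 (Nars), 0.36 (Tars) and 0.38 (Mars1).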

How the results depend on the processing

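Of the results for single members, 0 changed sign with a call in any alternative. Over the 9 contrasts, 320 of 324 member results stayed on the same side of the threshold with RLE size factors, 309 with no low-count filter, 320 with the replicate block, 281 with the groups compared alone and 301 without the 3 libraries with mesenchymal transcripts. Without the 5 libraries 290 did, with 8 calls lost and 26 gained. Fitting only the groups compared gave 6 members higher with dFz7-21 at 6 h, 0 higher with Fz7-21S at 24 h, 9 lower with dFz7-21 than with Fz7-21S at 6 h, 4 higher in that contrast at 24 h and 4 lower over time in DMSO. Without the 3 libraries, 1 member was lower with dFz7-21 at 6 h, and without the 5 libraries 6 were. No low-count filter gave 3 lower between the peptides at 6 h. Leaving out 5 libraries gave 8 lower at 6 h and 18 higher at 24 h between the peptides. In the change of the dFz7-21 effect with time, 0 members were called lower with no filter, with the replicate block or without the 3 libraries. DESeq2 called 5 members in the change of the Fz7-21S effect. The cause of these differences was not tested. These counts of members are given without the share of all genes called in each alternative, so they do not set the members apart.

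Leaving out 1 library at a time gave 23 to 27 members higher with dFz7-21 and 9 to 21 with Fz7-21S at 24 h. With dFz7-21 at 6 h 3 to 5 were lower. Between the peptides 2 to 5 were lower at 6 h, and 7 to 16 were higher and 5 to 6 lower at 24 h. Over time in DMSO 1 to 2 were lower, and in the change of the dFz7-21 effect 16 to 21 were higher and 0 to 1 lower. Same-numbered replicates showed no clear pairing: the correlations of their deviations ran from -0.104 to 0.115. For some libraries the closest match in the other group had the same number, and for others it did not. With the replicate block 28 members were higher and 3 lower with dFz7-21 at 24 h and 14 higher with Fz7-21S, Psat1 being lost.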
